A study of Mus musculus with 12 samples.

Results

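Control lines 15 and 18 are a pair of mouse tumour cell lines that carry intact Mif and were grown as separate control lines of a Mif knockout experiment. The labels name the parent line SCC35, and the series title places the experiment in a study of melanoma rejection. The comparison takes each line's own 10x library, so that line 15 and line 18 were captured apart, and the samples of days 6, 10 and 16 on the deposited hashtag sheet. Each sample was marked with a hashtag, an antibody that carries a DNA barcode. The sheet lists 47 hashtags over 6 libraries, and 12 of them, 2 for each line and day (letters A and B), form this comparison. The labels do not say whether each line is 1 clone, which control construct it carries, which mice hosted the tumours, and whether letters A and B are separate animals. P-values therefore measure the spread between these samples, called tumours here, which may in part be technical. A further 6 hashtags of the same lines (letter C, 1 per line and day) were captured in 2 mixed libraries and were used as a separate set. Day 0 samples of the own libraries (A and B of line 15 and A of line 18, with 197 cells) are given as values only. The B sample of line 18 on day 0 had 0 assigned cells.

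Cell lines derived from 1 parent can drift apart through single-cell cloning, passage and chromosome gains or losses, and such drift is a known background against which any knockout is read. Mif encodes macrophage migration inhibitory factor, a cytokine released by tumour and immune cells that signals through Cd74 together with Cd44 or chemokine receptors. Tumour-cell chemokines such as Ccl2 and Cxcl1 attract monocytes and neutrophils, and peroxiredoxins, interferon response genes and cell-cycle genes are common readouts of stress, inflammation and growth in tumours.

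Cells were assigned to a tumour by the 15-base barcode on its hashtag, and the same 6 barcodes served both libraries. They are shown because they define the 12 samples, and the first pair marked letters A and B of day 6, the next pair those of day 10 and the last pair those of day 16.

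HASH-M3: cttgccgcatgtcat
HASH-M4: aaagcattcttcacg
HASH-M5: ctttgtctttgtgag
HASH-M6: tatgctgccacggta
HASH-M7: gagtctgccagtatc
HASH-M8: tatagaacgccaggc

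A barcode entered with at least 300 genes, at most 15% mitochondrial UMIs (unique molecular identifiers, 1 per captured transcript), and a top hashtag of at least 20 counts and at least 3 times the second. Cells with at least 2 UMIs of Ptprc and Tyrobp together, a pair of genes of blood cells, are called immune cells, and the remainder are called other cells. Line 15 had 6663 other and 3836 immune cells, and line 18 had 15938 and 5003. Other cells of a tumour summed to 6746091 to 16547412 UMIs in line 15 and 8612812 to 29693671 in line 18, and immune cells to 2533313 to 9298441 and 1531870 to 6929547. The median passing cell held 9121.5 UMIs in the library of line 15 and 4823 in that of line 18. The libraries shared 375 assigned barcodes, 3.17% of those of line 15 and 1.77% of those of line 18. The labelled tissue was checked against markers. The summed level of 6 melanocyte genes was at most 1.05 CPM (the counts-per-million scale, a gene’s UMIs over all UMIs of the sum) in other cells of any tumour, and Tyr was at 0. The other cells are therefore named by the rule and not as melanoma cells. In the own libraries line and library cannot be told apart.

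Mif itself was examined first. In other cells its level was 2414 CPM ± 199 (SD, n = 6) in line 15 and 2124 CPM ± 164 (SD, n = 6) in line 18, and the tumours of the lines overlapped. The log2 fold change, line 15 over line 18 as everywhere below, came to 0.22 ± 0.07 (SE), with an adjusted p of 0.0198 by edgeR. Leaving out line 15 day 10 B brought the edgeR adjusted p to 0.0503, and in the mixed libraries the log2 fold change was -0.05 (edgeR adjusted p 0.821). Immune cells gave 0.05 for Mif (adjusted p 0.601 by edgeR). Of the 6 tested genes of Mif, its homologue Ddt and their receptors, 1 was called higher in line 15 (Mif) and 2 in line 18, where 16.8% and 17.6% of all genes were called. One of these is Cd44, a co-receptor, at -0.39 in the own and -0.05 in the mixed libraries.

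Across other cells, edgeR with day as a factor called 4461 of 12964 genes (34.4%) at an adjusted p of 0.05, the threshold for every call below. Of these 2179 (16.8% of genes tested) were higher in line 15 and 2282 (17.6%) in line 18. Most differences were small. Of the calls 2969 were under 0.5 in size on the log2 scale, and 529 were over 1. For 1370 genes (10.6%) no tumour of one line overlapped a tumour of the other. Without the day 16 tumours 2029 genes passed, and without those of day 10 2518. The day 0 samples, which the fit did not use, came from the same own libraries, where line and library cannot be told apart. At day 0 the difference between lines had the sign of the fit for 79.8% of the 529 genes, against 57.7% of genes that were not called. On the days that made the fit and chose these genes, it had that sign for 98.7% at day 6 and for 100% at days 10 and 16.

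Genes named by rule, here and below, were taken only from calls whose tumours did not overlap between lines. Their lack of overlap is therefore no separate result. The widest gap among the genes named by rule was that of Prdx4, a peroxiredoxin of the endoplasmic reticulum that removes hydrogen peroxide. Its gene lies on chromosome X between 155323918 and 155340754 on the minus strand (GENCODE M21, GRCm38). Other cells of line 15 held 5.48 to 17.3 CPM (median 14.3) and those of line 18 140.3 to 174 CPM (median 158), and no line 15 tumour came near the lowest of line 18. The log2 fold change came to -3.62 ± 0.19 (SE), with an adjusted p of 1.40e-07 by edgeR. At day 0 the line 15 samples held 0.596 and 0.588 CPM and the line 18 sample 151 CPM. In the mixed libraries the 3 line 15 tumours held 13.1 to 26.5 CPM and the 3 line 18 tumours 148 to 178 CPM, a log2 fold change of -3.05 (edgeR adjusted p 0.00167). When other cells with 2 or more UMIs of the fibroblast list or of Cd3 genes were left out, an alternative chosen after seeing the data, Prdx4 in other cells had a log2 fold change of -6.29. Those cells held 85.8% of the 872 Prdx4 UMIs of line 15 and 10.3% of all its UMIs, against 6.91% of the 14387 Prdx4 UMIs of line 18 and 6.82% of all. The remaining cells of line 15 held 124 Prdx4 UMIs, or 1.90 CPM, and those of line 18 158.8 CPM. Immune cells of line 15 had more Prdx4 than its other cells, at 16.2 to 65.3 CPM (median 50.8), and immune cells of line 18 held 114 to 146 CPM (median 129).

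A second X-linked gene, Tex13b, fell outside the naming rule through its low mean level and was singled out after its values were seen. It is a testis-expressed gene at 140808307 to 140813433 on the minus strand of chromosome X. The 6 line 15 tumours held 1 Tex13b UMI among 72613105, and the 6 line 18 tumours held 2632 among 90512002, at 25.4 to 33.8 CPM (median 29.2). The ratio of line 18 to line 15 was 2112, with a 95% counting interval of 379 to 83432. In the mixed libraries the counts were 18 and 1501, a ratio of 39.1 (24.7 to 66.2). At day 0 line 15 held 1 UMI in its A sample and 0 in its B sample, and line 18 held 37. Intervals and floors here cover counting error only. In immune cells of the own libraries line 15 held 0 Tex13b UMIs and line 18 held 395, so that line 18 was at least 139.8-fold higher against a floor of 3 counts over the group. Immune cells of line 18 stood at 54.3% of the level of its other cells. In mixed library 1, where both lines were captured together, immune cells held 1.33 to 2.27 CPM in the 3 line 15 tumours and 1.85 CPM in the line 18 tumour of day 16.

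The stretches upstream of both genes are shown because Tex13b was near absent from line 15 and Prdx4 had the widest gap among the genes named by rule. Each is the 250 bases before a RefSeq transcript start in GRCm38.p6 on the minus strand, written 5′ to 3′ with every CG dinucleotide in capitals. The Prdx4 window is chrX:155338461-155338710 and the Tex13b window chrX:140813434-140813683. The Prdx4 window lies inside the GENCODE gene, which starts farther upstream.

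Prdx4: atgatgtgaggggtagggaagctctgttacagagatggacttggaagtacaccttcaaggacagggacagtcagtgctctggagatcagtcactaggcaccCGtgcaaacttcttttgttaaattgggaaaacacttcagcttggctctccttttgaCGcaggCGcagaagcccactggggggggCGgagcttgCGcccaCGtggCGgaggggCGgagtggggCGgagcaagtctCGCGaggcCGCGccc
Tex13b: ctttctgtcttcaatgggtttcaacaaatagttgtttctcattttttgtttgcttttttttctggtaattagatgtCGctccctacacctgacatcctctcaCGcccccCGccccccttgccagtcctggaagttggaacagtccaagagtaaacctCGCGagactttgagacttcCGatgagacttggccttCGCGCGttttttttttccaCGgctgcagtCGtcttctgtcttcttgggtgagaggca

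The Prdx4 window holds 13 CG dinucleotides and that of Tex13b 11, against a median of 6 over 32851 RefSeq promoter windows of the same length. Of all windows 31.5% hold at least 13 and 35.6% at least 11. CG reads the same on both strands, so each was counted once. DNA methylation was not measured in these files.

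**Figure D1:**
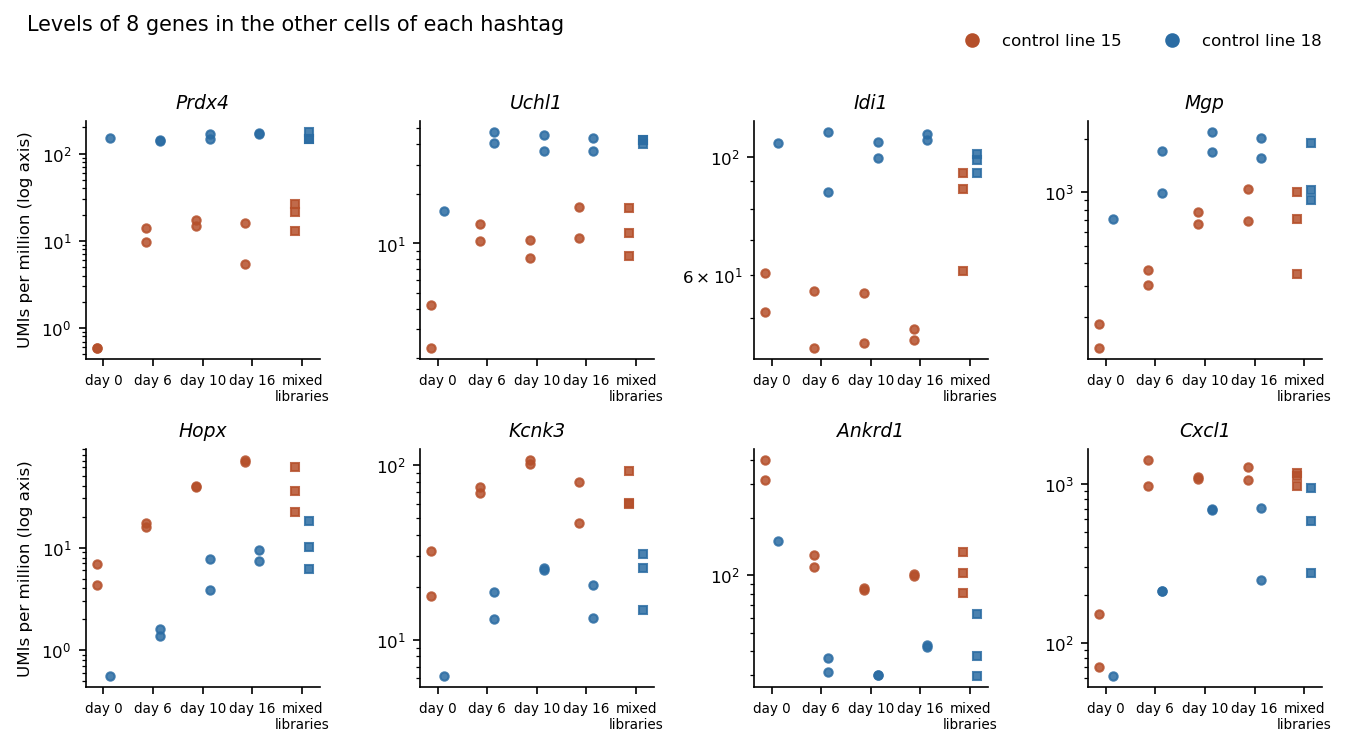
CPM on log axes of 8 genes in other cells, with 1 point for each hashtag, by day for the own libraries (circles) and together for the mixed libraries (squares), line 15 in red and line 18 in blue. Prdx4 of line 15 sits at 5.48 to 17.3 CPM in its own library on days 6 to 16 and Prdx4 of line 18 at 140.3 to 174 CPM.

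Uchl1, a deubiquitinating enzyme, was at 8.15 to 16.6 CPM (median 10.7) in line 15 and 36.3 to 47.7 CPM (median 42.3) in line 18 (log2 fold change -1.80 ± 0.13, SE, adjusted p 1.29e-06 by edgeR). Slc25a13, the mitochondrial aspartate-glutamate carrier, was at 7.50 to 10.8 CPM (median 9.87) and 23.4 to 35.4 CPM (median 27.9) (log2 fold change -1.53). Tspan12, a tetraspanin of Norrin and Frizzled signalling, was at 5.96 to 15.6 CPM (median 11.6) and 31.6 to 43.4 CPM (median 38.5) (log2 fold change -1.75). These genes were named by the rule that required no overlap between the tumours of the lines. The remaining named genes higher in line 18 were Lgals7 (-1.44), a galectin, and Marcks (-1.32), an actin-binding substrate of protein kinase C. They also included Cisd3 (-1.24), an iron-sulfur protein of mitochondria, Lurap1l (-1.16), Magohb (-1.07), a subunit of the exon junction complex, and Ly75 (-0.94), an endocytic receptor. All passed with an edgeR adjusted p of at most 3.74e-05.

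Idi1, which isomerises isopentenyl diphosphate on the way to cholesterol, was at 43.8 to 56.1 CPM (median 46.5) in line 15 and 86.2 to 111 CPM (median 107) in line 18 (log2 fold change -1.05, edgeR adjusted p 2.52e-06). Fads1, a fatty acid desaturase, was at 20.4 to 28.3 CPM (median 24.0) and 38.8 to 56.1 CPM (median 51.2) (log2 fold change -1.01). Hmgcs1, which makes HMG-CoA for the same sterol pathway as Idi1, was looked up after these were seen and had a log2 fold change of -0.88 (edgeR adjusted p 1.19e-05). Idi1 and Fads1 were named in other cells by the rule that required no overlap. Hmgcs1, which that rule did not name there, also separated the lines in the own libraries. In the mixed libraries Fads1 was at -0.72 (edgeR adjusted p 0.0466), Idi1 at -0.31 (0.291) and Hmgcs1 at -0.34 (0.165), so that the last pair did not pass there.

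On the side of line 15 the widest gap was that of Hopx, a homeodomain-only protein that binds no DNA itself. Line 15 tumours held 15.8 to 70.8 CPM (median 39.2) and line 18 tumours 1.39 to 9.47 CPM (median 5.66), a log2 fold change of 3.04 ± 0.14 (SE), with an adjusted p of 4.01e-08 by edgeR. Hopx was higher at later days in both lines, and the groups were apart at each day, which the naming rule required. By tumour line 15 had 17.5 and 15.8 CPM at day 6 and 67.8 and 70.8 CPM at day 16, while line 18 had 1.39 and 1.62 and then 9.47 and 7.44 CPM. Kcnk3, a background potassium channel, was at 46.5 to 107 CPM (median 77.1) and 13.1 to 25.6 CPM (median 19.6) (log2 fold change 2.06). Il1rl1, the receptor of interleukin 33, was at 183 to 274 CPM (median 204) and 41.9 to 93.4 CPM (median 72.8) (log2 fold change 1.66). Both genes were named by the rule that required no overlap between lines.

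Further genes higher in line 15 were Tslrn1 (1.85), Timp3 (1.74), an inhibitor of matrix metalloproteinases, and Anxa8 (1.69), an annexin. Ankrd1 (1.53), a target of YAP in many cell types, Dusp2 (1.46), a phosphatase of MAP kinases, Ass1 (1.43), which makes argininosuccinate in arginine synthesis, and Ier3 (1.30), an immediate early gene, were also named by the rule. Ankrd1 was at 83.3 to 128 CPM (median 100.1) and 30.1 to 43.1 CPM (median 34.0). It stood higher in the day 0 samples of both lines, at 401 and 316 CPM in line 15 and 152 CPM in line 18. Ass1 was at 102 and 94.3 CPM against 14.5 CPM at day 0, and its lowest line 15 tumour, at 47.6 CPM, lay above its highest line 18 tumour, at 35.1 CPM.

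Chemokines were among the genes higher in line 15. Ccl2, the chief chemokine for monocytes, was at 309.7 to 612 CPM (median 411) in line 15 and 74.0 to 296 CPM (median 145) in line 18 (log2 fold change 1.62 ± 0.30, SE, adjusted p 0.00142 by edgeR). Cxcl1, which attracts neutrophils, was at 967 to 1414 CPM (median 1091) and 211 to 703 CPM (median 464) (log2 fold change 1.51 ± 0.29, SE, adjusted p 0.00190 by edgeR). Both were named by the rule that required no overlap in the own libraries. By day the log2 ratios were 2.44, 0.60 and 1.71 for Ccl2 and 2.49, 0.66 and 1.30 for Cxcl1 on days 6, 10 and 16. A difference between days was not called for either gene (edgeR adjusted p 0.894 and 0.884). The day 0 samples held 71.0 and 152 CPM of Cxcl1 for line 15 and 61.5 for line 18. In the mixed libraries the log2 fold changes were 0.71 and 0.99 (edgeR adjusted p 0.305 and 0.177).

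**Figure D2:**
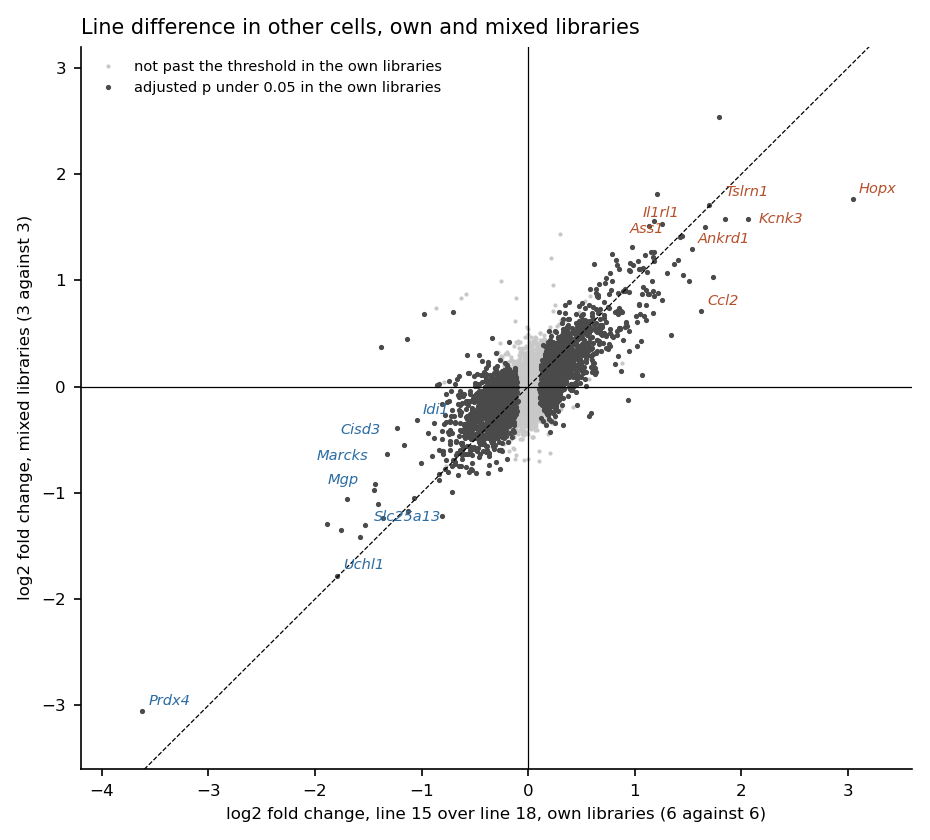
Log2 fold change of each gene with a mean logCPM of at least 4 in other cells, own libraries on the horizontal axis and mixed libraries on the vertical axis, with genes past the threshold in the own libraries in dark grey and the dashed line marking equal values. Prdx4 stands at -3.62 and -3.05, Hopx at 3.04 and 1.77, and Idi1 lies nearer to 0 in the mixed libraries.

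The mixed libraries gave a set of 6 tumours that the main comparison did not use. In it edgeR called 77 of 12912 genes (0.596%), and 2122 had an unadjusted p under 0.05. Of the 77, 75 were also called in the own libraries with the same sign, which is 97.4% of the 77 and 1.68% of the 4461. Of the 4413 called genes that were tested in both, 83.2% had the same sign in the mixed libraries, against 59.3% of genes that were not called. The median size of the differences of those 4413 was 0.35 on the log2 scale in the own and 0.24 in the mixed libraries. Of the 486 called genes with a log2 fold change over 1 in size, 91.4% had the same sign in the mixed libraries. The lines were also unevenly spread over the mixed libraries, since all 3 line 15 tumours and the line 18 tumour of day 16 were in one and the other 2 line 18 tumours in the second. With library as a term the contrast rests on the day 16 pair within 1 library, and the same sign was found for 76.5% of called genes, 87.5% of the large ones and 58.0% of the uncalled. In that fit 37 genes passed.

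Genes were also counted by list, with no test of any list. Over all 12964 genes tested the median log2 fold change was -0.01, with 16.8% called higher in line 15 and 17.6% in line 18. Of 12 immediate early genes, which respond within minutes to growth factors and stress, 10 were called higher in line 15 and 0 in line 18, with a median of 0.56. Atf3, a stress-response transcription factor, was at 381 to 481 CPM (median 438) and 228 to 283 CPM (median 249.7) (log2 fold change 0.83, edgeR adjusted p 2.99e-06), with no overlap. Dusp1, a phosphatase of MAP kinases, had 0.89, Egr1 0.79, and Fos and Jun, which form the factor AP-1, had 0.56 and 0.57. The list's median was 0.50 in the mixed libraries. There the line 18 tumour of day 16 stood above the line 15 tumour of that day for Fos, at 1590.0 against 1145 CPM, and with library as a term the log2 fold changes in other cells of Fos, Jun, Egr1 and Dusp1 were -0.48, -0.17, -0.27 and -0.13.

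Of 18 chemokines and growth factors, 9 were called higher in line 15 and 2 in line 18, with a median of 0.57 (0.48 in the mixed libraries). Besides Ccl2 and Cxcl1 they included Ccl7, another chemokine for monocytes, at 1.25, and Csf1, the macrophage growth factor, at 0.56. Csf1 was at 212 to 328 CPM (median 249) in line 15 and 143 to 211 CPM (median 175) in line 18. Il34, the other ligand of the Csf1 receptor, went the opposite way at -0.38 (edgeR adjusted p 0.000833), with 13.9 to 23.4 CPM (median 18.9) and 18.3 to 29.8 CPM (median 25.3). Of 16 interferon response genes 6 were called higher in line 15 and 0 in line 18, with a median of 0.37 (0.25 in the mixed libraries). Bst2, an interferon-induced protein that tethers viruses, had 0.65 and Irf1, an interferon-responsive transcription factor, 1.13. With library as a term in the mixed libraries, Bst2 in other cells was at -0.026 and Csf1 in other cells at -0.0098. Both values lie near 0 and show no clear direction. Of 13 genes of MHC class I presentation 1, H2-D1, was called higher in line 15 and 0 in line 18, with a median of 0.01, and H2-D1 in other cells missed the threshold without any 1 of 7 tumours (edgeR adjusted p 0.0564 to 0.0743).

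Of 8 prostaglandin enzymes 7 were called higher in line 15, with a median of 0.79. Ptgs1 and Ptgs2, the cyclooxygenases that start prostaglandin synthesis, had log2 fold changes of 0.87 and 0.34, and Akr1c18, an aldo-keto reductase, 0.84. Ptgs1 was at 28.1 to 55.4 CPM (median 43.4) and 18.4 to 30.1 CPM (median 23.4). The list's median was 0.68 in the mixed libraries and 0.18, with 4 of 7 called higher in line 15, without the cells that carried fibroblast-list or Cd3 UMIs. Of all 12516 genes tested without those cells, 2034 were called higher in line 15. Ptgs1, Ptgs2 and Akr1c18 kept log2 fold changes of 0.89, 0.26 and 0.88 without those cells.

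Of 16 genes of glycolysis and hypoxia 7 were called higher in line 15 and 0 in line 18, with a median of 0.15 (0.35 in the mixed libraries). Ndrg1, induced in low oxygen, was at 153 to 314 CPM (median 263) and 88.5 to 172 CPM (median 160.5) (log2 fold change 0.85, edgeR adjusted p 0.000249), and Car9, a carbonic anhydrase induced in low oxygen, had 1.05 (edgeR adjusted p 0.00467). Of 11 p53 targets 6 were called higher in line 15, with a median of 0.20, and Cdkn1a, the cyclin-dependent kinase inhibitor p21, had 0.38. Krt18, a simple keratin, was at 107 to 257 CPM (median 158) and 50.6 to 119 CPM (median 71.0) (log2 fold change 1.16, edgeR adjusted p 2.52e-06). Sox9, a transcription factor of progenitor and cartilage cells, had 0.76. Of 14 matrix proteases and inhibitors 5 were called higher in line 15, among them Mmp14 (0.50), a membrane metalloproteinase.

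The cell-cycle and S100 lists held more calls higher in line 18. Of 17 cell-cycle genes 8 were called higher in line 18 and 0 in line 15, with a median of -0.19 (-0.42 in the mixed libraries). Top2a, the topoisomerase of dividing cells, was at 107 to 149 CPM (median 135) in line 15 and 193 to 245 CPM (median 219.7) in line 18 (log2 fold change -0.73, edgeR adjusted p 3.38e-06), with no overlap. Cenpf, a kinetochore protein, had -0.79 and Mki67, a marker of proliferation, -0.49. Of 7 S100 genes, small calcium-binding proteins, 5 were called higher in line 18 and 1 in line 15. S100a10 was at 2327 to 2899 CPM (median 2441) and 4001 to 4931 CPM (median 4579) (log2 fold change -0.81, edgeR adjusted p 2.84e-08), and S100a6 had -0.46. All 7 lie on chromosome 3.

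Of 16 matrix proteins 8 were called higher in line 15 and 1 in line 18, with a median of 0.51, and of 14 collagens 7 and 2, with a median of 0.29. Dcn, the proteoglycan decorin, was at 137 to 372 CPM (median 324) and 81.5 to 235 CPM (median 148) (log2 fold change 0.97), and Bgn, biglycan, at 134 to 308 CPM (median 223) and 74.9 to 154 CPM (median 102) (1.07). The summed level of the 7 fibroblast markers, none of them at 0, ran from 209 to 473 CPM (median 426) in line 15 and from 135 to 329 CPM (median 208) in line 18, and from 14.2 to 28.6 CPM at day 0. Other cells with 2 or more UMIs of that list were 5.70% to 11% of other cells in line 15 and 3.91% to 6.56% in line 18. Cells were not thinned for this gate, which passes more cells of a deeper library at an equal level. By tumour the median other cell held 8889 to 12940 UMIs in line 15 and 4037 to 7613.5 in line 18. Fewer cells of a type and less RNA per cell cannot be told apart in these sums. Without such cells and Cd3 cells, 5952 and 14878 cells remained and 4161 of 12516 genes were called. Of these, 2034 were higher in line 15 and 2127 in line 18, the background for the list counts that follow. The matrix list then had 0 calls higher in line 15 and 4 in line 18 of 15 tested (median -0.22), and the collagens 3 and 6 of 14 (median -0.25). Dcn and Bgn were then at -2.40 and -0.19, and Dcn was among the genes used to remove cells. Ogn, osteoglycin, was higher in line 18 both ways, at -1.41 and -1.37. The immediate early, chemokine and cell-cycle medians were 0.51, 0.58 and -0.16 without those cells.

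**Figure D3:**
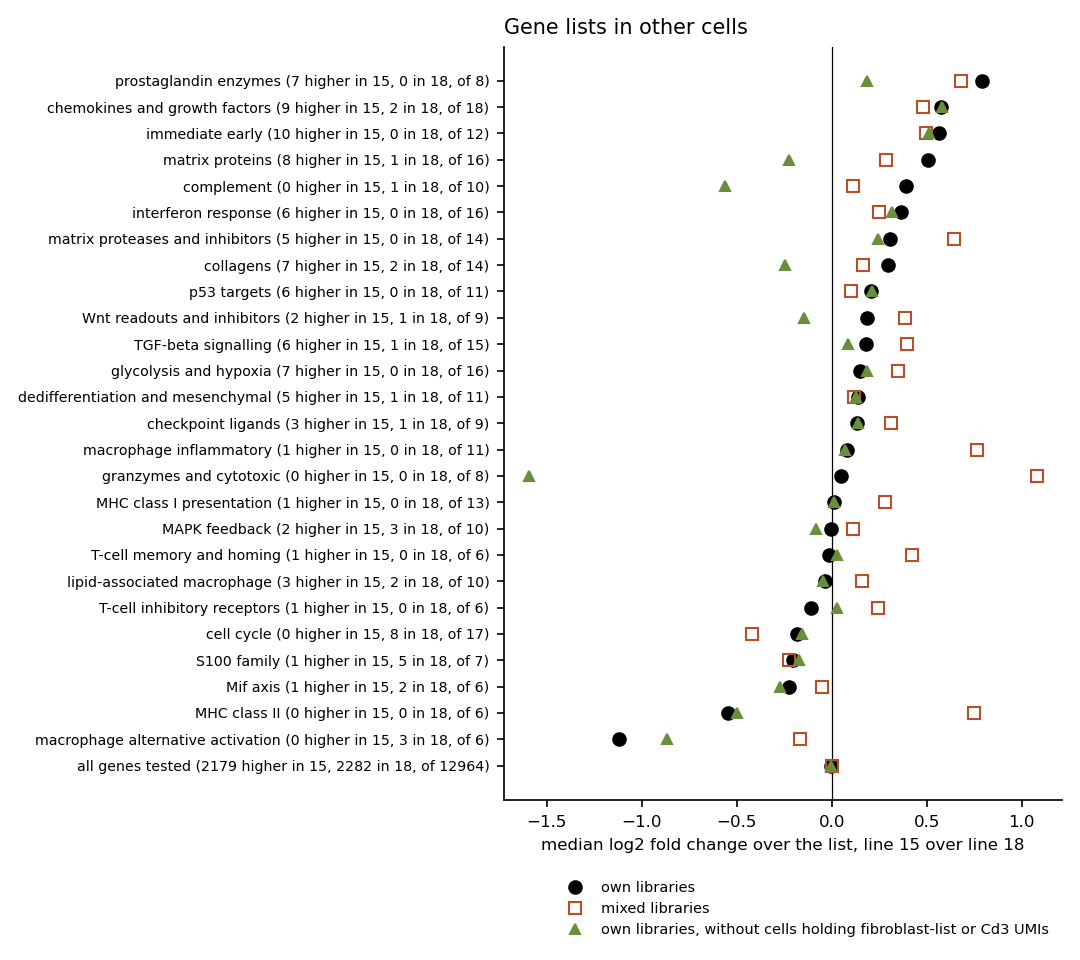
Median log2 fold change, line 15 over line 18, of each gene list with at least 6 genes tested in other cells, for the own libraries (circles), the mixed libraries (squares) and the own libraries without cells that carried fibroblast-list or Cd3 UMIs (triangles), with the calls in the own libraries beside each name. The matrix and collagen lists lie to the right of 0 in the own libraries (0.51 and 0.29) and to the left without those cells (-0.22 and -0.25), while the immediate early list stays near 0.5.

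Positions along the genome were examined after the values were seen, as a description with no test, over 6563 genes with a mean logCPM of at least 4. The median log2 fold change over all of them was 0.00, with 20.3% called higher in line 15 and 20.9% in line 18. Chromosome 18 stood apart. Its 199 genes had a median of 0.31, and 78.4% were called higher in line 15 and 2.01% in line 18. The median was 0.26 in the mixed libraries and 0.32 at day 0. Chromosome 18 held 2.39% to 2.47% of the UMIs of other cells in line 15 tumours and 1.89% to 1.94% in line 18 tumours, ranges that did not overlap. Every 10 Mb window of chromosome 18 with at least 10 genes had a median between 0.20 and 0.56.

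Chromosome 3, which carries the S100 genes, leaned the other way. Its 361 genes had a median of -0.12 in the own libraries, -0.10 in the mixed libraries and -0.12 at day 0, and 43.8% were called higher in line 18 and 5.54% in line 15. It held 6.37% of the UMIs of other cells on average in line 15 and 7.61% in line 18. S100 genes with high counts weigh on these shares, which alone cannot show a shift along the whole chromosome. Line 15 and line 18 had medians of 10497 and 14908 CPM for S100a6, 2441 and 4579 for S100a10, and 4345 and 5262 for S100a4. Of the 7 S100 genes 1 was called higher in line 15. Chromosomes 1 and X leaned the same way, with 32.8% and 32.0% called higher in line 18 and 11.4% and 12.4% in line 15.

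Chromosome 19 held stretches of opposite sign. Its most gene-rich window, 0 to 10 Mb, had calls of both signs, with a median of -0.15 over 124 genes, 25 called higher in line 15 and 60 in line 18, and medians of -0.19 in the mixed libraries and -0.053 at day 0. Between 10 and 20 Mb, where Fads1 lies, 27 genes had a median of -0.63, and 24 were called higher in line 18 and 0 in line 15. Between 20 and 30, 30 and 40, and 40 and 50 Mb the medians were 0.32, 0.34 and 0.50, and in the last of these 46 of 50 genes were called higher in line 15. Ankrd1 lies in the second of these stretches, at 36111961 to 36120099. Between 50 and 60 Mb the median was -0.04. The mixed libraries gave -0.45, 0.28, 0.25, 0.34 and 0.04 for the same 5 windows, and day 0 gave -0.56, 0.34, 0.45, 0.58 and -0.01. Chromosomes 18 and 19 together held 357 of the 2701 calls (13.2%) and 7.18% of the genes. In immune cells the median of chromosome 18 was 0.15 in the own and 0.05 in the mixed libraries. DNA copy number was not measured in these files.

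**Figure D4:**
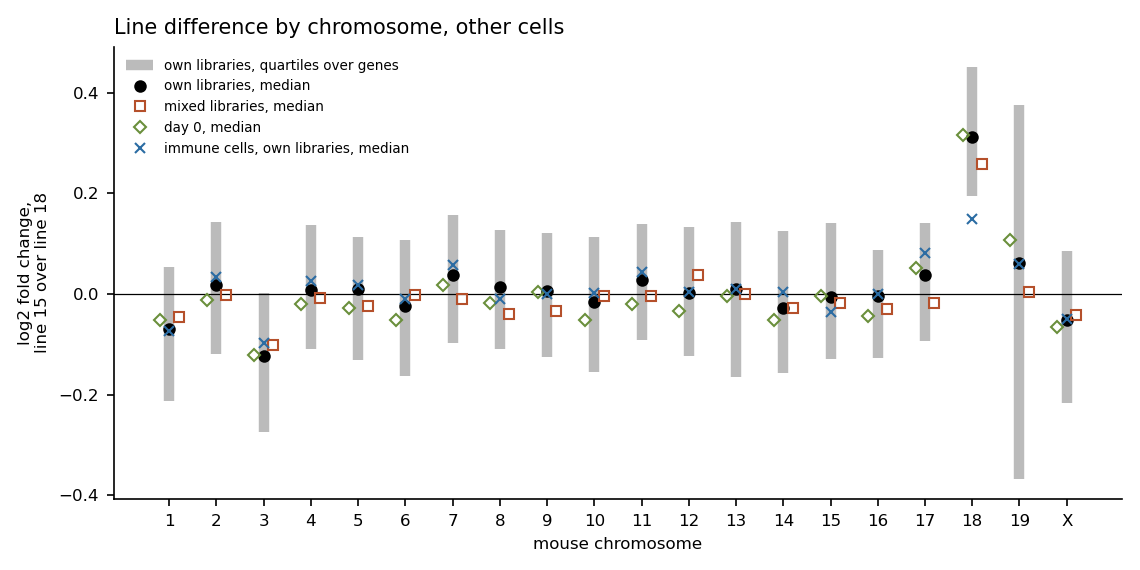
Log2 fold change, line 15 over line 18, by mouse chromosome for genes with a mean logCPM of at least 4, with the median of other cells in the own libraries (circles) and the quartiles over genes (bars), the mixed libraries (squares), day 0 (diamonds) and immune cells (crosses). Chromosome 18 lies at 0.31, 0.26, 0.32 and 0.15 in these 4 sets, chromosome 3 lies below 0 in each, and the bar of chromosome 19 spans both signs.

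The share of cells that met the immune rule differed between the lines in the own libraries. Immune cells were 31.6% and 46.1% of assigned cells in the line 15 tumours of day 6, 37.2% and 34.4% at day 10, and 43.3% and 24.3% at day 16. In line 18 they were 19.8% and 30.1%, 30.0% and 27.9%, and 22.1% and 18.7%. Within each day both line 15 tumours lay above both line 18 tumours. The means were 36.1% ± 7.94 (SD, n = 6) and 24.7% ± 5.20 (SD, n = 6), a difference of 11.4 percentage points. An exact two-sided permutation test within days gave p = 0.00926, the smallest that 216 arrangements allow, and 0.0278 after Benjamini-Hochberg adjustment over 3 shares. Because the libraries differed in depth, cells were also thinned to 1000 UMIs, which gave 24.4% and 14.02% (exact permutation p = 0.00926). Cells with under 1000 UMIs were left out of these values. They were 242 of 1646 assigned cells in line 15 day 6 B and 317 of 2920 in line 18 day 6 B. Without the line 18 tumours of day 16 A or B the exact permutation p was 0.0556 and 0.0648. The mixed-library means were 40.7% and 28.6% (n = 3 each, exact permutation p = 0.75). With 8 arrangements this test could not reach the threshold whatever the values. In the mixed libraries the line 18 tumour of day 10 lay above the line 15 tumour of that day. Among cells that passed the filters and were assigned to no tumour, 6.13% were immune cells in the library of line 15 and 6.05% in that of line 18, against 32.4% and 23.7% of assigned cells.

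Within the immune cells, those with at least 2 UMIs of Cd3 genes made up 3.01% ± 1.20 (SD, n = 6) in line 15 and 2.32% ± 1.68 (SD, n = 6) in line 18 (exact permutation p = 0.454, adjusted 0.63). Those with at least 10 UMIs of the C1q genes, which mark macrophages, made up 38.1% ± 14.5 and 40.5% ± 23.2 (SD, n = 6 each, exact permutation p = 0.63, adjusted 0.63). Neither share was shown to differ. The Cd3 share leaves out most cells with Cd3 UMIs in line 18, since 133 of 262 such cells of line 15 (50.8%) and 322 of 451 of line 18 (71.4%) lay among the other cells. Over both compartments they were 0.993% to 3.83% of assigned cells (median 2.35%) in line 15 and 0.565% to 4.28% (median 1.67%) in line 18, ranges that overlapped. In the other cells of both lines 4.89% to 13.1% had 1 UMI of Ptprc and Tyrobp. The rule leaves at most 1 UMI of Ptprc and Tyrobp together in an other cell. Their CPM there is thus limited by depth and cannot show a line difference in expression. Other cells held a median of 8889 to 12940 UMIs in line 15 tumours and 4037 to 7613.5 in line 18 tumours. Ptprc in other cells was at 1.09 to 4.15 CPM (median 2.39) in line 15 and 2.79 to 8.23 CPM (median 4.27) in line 18 (log2 fold change -0.96). Tyrobp there was at 3.39 to 8.49 CPM (median 4.17) and 6.97 to 13.3 CPM (median 9.41) (-1.11). In the mixed libraries both turned direction, at 0.59 and 0.42. The summed level of 7 macrophage markers, none at 0, was 28.1 to 58.0 CPM in line 15 and 51.9 to 128 CPM in line 18, and overlapped. The part of immune cells outside the gate in the difference in share was not tested.

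**Figure D5:**
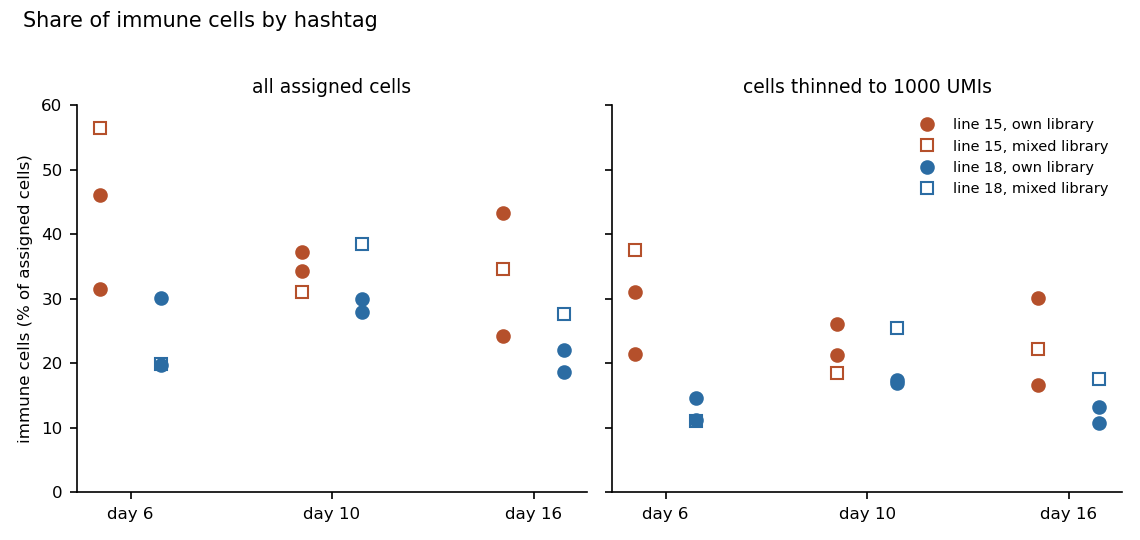
Immune cells as a percentage of assigned cells for each hashtag by day, for all assigned cells (left) and for cells thinned to 1000 UMIs (right), with own libraries as filled circles, mixed libraries as open squares, line 15 in red and line 18 in blue. Cells with under 1000 UMIs are left out on the right. In the own libraries line 15 lies above line 18 within each day, while the mixed tumours of day 10 lie the other way round.

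Among immune cells edgeR called 1351 of 11292 genes (12%), 534 (4.73%) of them higher in line 15 and 817 (7.24%) higher in line 18. With the letter as a replicate block 766 passed. For 570 genes (5.05%) the tumours of the lines did not overlap. Without the tumours of day 16, 67 genes passed. Leaving out 1 tumour gave 759 without line 18 day 16 B, 775 without line 15 day 16 A, 830 without line 15 day 16 B and 875 without line 18 day 6 B. From the mixed libraries edgeR called 0 of 11558 genes, with 452 at an unadjusted p under 0.05, and 69.5% of the called genes tested there had the same sign, against 56.5% of uncalled genes.

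In immune cells Mgp, matrix Gla protein, was at 159.7 to 321 CPM (median 187) in line 15 and 766 to 1062 CPM (median 878) in line 18 (log2 fold change -2.09, edgeR adjusted p 1.63e-05), 33.1% and 53.4% of its level in other cells, where its log2 fold change was -1.45. The mixed libraries gave -0.33. Lgals7 had -1.76 in the own and 0.06 in the mixed libraries, Ankrd1 1.90 and 0.51, and Kcnk3 1.30 and 0.44. With library as a term in the mixed libraries the direction turned for Ankrd1 (-0.23), Kcnk3 (-0.43) and Uchl1 (0.35) in immune cells. Ankrd1 in immune cells stood at 69.3% of its other-cell level in line 15 and 52.6% in line 18. Chrdl1, Ppp1r14c, Uchl1 and Thbs2 had -1.42, -1.21, -1.18 and -1.18 in the own libraries and -0.08, -0.39, -0.24 and -0.30 in the mixed ones, and Thbs2 was not called in other cells (edgeR adjusted p 0.0770). RNA of other cells in the droplets of immune cells was not separated from their own, and its part in these values was not tested.

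Col3a1, a fibrillar collagen, had a log2 fold change of -1.32 in immune cells and 0.00 in other cells. Its level in immune cells was 20.7% of that in other cells in line 15 and 48.1% in line 18, and in the mixed libraries its log2 fold change was 0.49.

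Some further genes had differences in immune cells, and Syk had its main level there. Syk, a kinase of immune receptors, was at 72.6 to 101 CPM (median 83.4) in line 15 and 37.2 to 64.8 CPM (median 50.6) in line 18 (log2 fold change 0.76, edgeR adjusted p 0.00103), with no overlap, and at 1692% and 1622% of its other-cell level in the lines. The mixed libraries gave 0.37. Oas1g, an interferon-induced antiviral gene, had 0.78 in the own and -0.01 in the mixed libraries, and Dusp2 1.02 and 0.21 (-0.17 in immune cells with library as a term). Dusp2 was also called in other cells. Its medians in immune and other cells were 139 and 88.7 CPM in line 15, and 72.7 and 35.5 CPM in line 18. Id3, an inhibitor of helix-loop-helix transcription factors, had 0.89 and 0.08. Spp1, osteopontin, was lower in line 15, at 2820.3 to 4062 CPM (median 3665) against 5149 to 7017 CPM (median 5294) (log2 fold change -0.63, edgeR adjusted p 0.00104), and at 0.17 in the mixed libraries. Fabp5, a fatty acid binding protein of lipid-laden macrophages, was higher in line 15 at 0.70 and 0.52.

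By list, 4 of 12 immediate early genes were called higher in line 15 in immune cells and 0 in line 18 (median 0.41, and 0.07 in the mixed libraries), and 3 of 16 interferon response genes (median 0.45, and -0.17 in the mixed libraries). Of all genes tested in immune cells 4.73% were called higher in line 15 and 7.24% higher in line 18. Of 17 cell-cycle genes 5 were called higher in line 18, Top2a at -0.58 among them (0.08 in the mixed libraries with library as a term), and of 7 S100 genes 3, S100a10 at -0.83 among them. All 7 MHC class II genes had positive values, with a median of 0.41, and 0 were called. Of 9 granzyme and cytotoxic genes 2 were called higher in line 15, with a median of 1.46 in the own and -0.68 in the mixed libraries. Gzmf, a granzyme, was at 1.65 to 178 CPM (median 72.9) and 0 to 71.6 CPM (median 2.92), ranges that overlapped (log2 fold change 2.75, edgeR adjusted p 0.0192), and did not pass without line 18 day 16 B (0.0797). With the letter as a replicate block 1 called gene of the granzyme list, Gzmd (adjusted p 0.0518 by edgeR), and 1 of the immediate early list, Zfp36 (0.0617), missed the threshold, as did Oasl1 (0.0693), a relative of the interferon-induced oligoadenylate synthetases that was named by rule and is in no list here. Gzmd also missed it without any 1 of 7 tumours (0.0596 to 0.136), Zfp36 without any 1 of 5 (0.0536 to 0.0805) and Oasl1 without any 1 of 4 (0.0530 to 0.0685). Gzmf and its neighbour Gzmd are close paralogs, so how the counting divides their reads is uncertain. Over all genes tested in immune cells the median was 0.00.

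C1q-gated cells gave 603 calls by edgeR among 9231 genes (6.53%), 228 (2.47%) higher in line 15 and 375 (4.06%) higher in line 18, and for 211 genes (2.29%) the lines did not overlap. The count was 18 without day 16. It also moved with single tumours, to 381, 241 and 282 without the line 15 tumours of day 10 A, 16 A and 16 B, and 391, 945, 356 and 234 without the line 18 tumours of day 6 B, 10 A, 16 A and 16 B. The mixed libraries gave 4 calls among 10224 genes (0.0391%), none of them called in the own libraries, and 419 genes at an unadjusted p under 0.05. The genes named as higher in line 15 were Ankrd1 (1.79), Kcnk3 (1.42), Dusp2 (0.96) and Gdf15 (1.04), a stress-induced cytokine. Those higher in line 18 were Mgp (-2.13), Thbs2 (-1.29), Cisd3 (-1.26) and Hmgcs1 (-1.22). All of these but Thbs2, at -0.30 (adjusted p 0.0770 by edgeR), were called in the same direction in other cells. In C1q-gated cells of the mixed libraries the log2 fold changes of Ankrd1, Kcnk3, Mgp and Hmgcs1 were 0.08, 0.20, -0.57 and -0.09, all nearer to 0, and with library as a term Ankrd1 in C1q-gated cells was at -0.54 and Kcnk3 in C1q-gated cells at -0.43, the opposite direction. Gdf15 in C1q-gated cells had an adjusted p of 0.0224 by edgeR, and of 0.0523, 0.0908, 0.0907 and 0.0600 without line 15 day 10 A, line 15 day 16 B, line 18 day 16 B and line 18 day 6 B.

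Cd3-gated cells within the immune cells numbered 129 in line 15 and 129 in line 18. Only 2 line 15 tumours (day 6 B and day 16 A) and 3 line 18 tumours (day 10 A, day 16 A and day 16 B) had at least 20 of these Cd3-gated cells, and with day as a factor the line contrast rests on the 1 line 15 tumour and the 2 line 18 tumours of day 16, with 1 residual degree of freedom. The calls below therefore describe these 3 tumours. By edgeR 54 of 3655 genes (1.48%) were called, 23 (0.629%) higher in line 15 and 31 (0.848%) higher in line 18, and for 977 (26.7%) the tumours did not overlap. DESeq2 called 3 genes, with a stricter hashtag call edgeR called 0, and without the line 18 tumour of day 10 A 35 were called. On day 16 H2-Aa, an MHC class II gene, was at 44.4 CPM in line 15 and 691 and 731 CPM in line 18. The highest level of H2-Aa in Cd3-gated cells was in line 15, at 4000.3 CPM in the day 10 A tumour, which had under 20 such cells and was not fitted, so that over all tumours the lines overlapped. H2-Ab1 and H2-Eb1 had the same order. The genes named as higher in line 15 were Il1rl1, Cd4, the co-receptor of helper T cells, Igfbp7 and Tnfrsf4, the receptor OX40. Il1rl1 in Cd3-gated cells turned direction in the mixed libraries, at -0.69. Cd4 was at 151.8 CPM in line 15 and 8.04 and 19.9 CPM in line 18 on day 16, but the line 18 tumour of day 6 B, with under 20 such cells and not fitted, held 163 CPM. Counting Cd3 cells of both compartments, an alternative chosen after seeing the data, 5 tumours of each line had at least 20 cells and edgeR called 138 genes. The log2 fold changes in Cd3-gated cells were then -2.79 for H2-Aa, 1.43 for Cd4, 1.96 for Il1rl1 and 1.68 for Tnfrsf4 (edgeR adjusted p 0.00629, 0.0126, 0.000269 and 0.000301), and Igfbp7 was not called, at 0.44 (0.396).

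Whether the line difference itself differed between days was tested with line-by-day terms. In other cells edgeR called 0 of 13229 genes, and without a low-count filter 493. In immune cells 188 of 11511 genes (1.63%) were called. That count was 0 without line 15 day 6 A, without line 15 day 10 B or without line 18 day 6 A, and at most 67 without any 1 of 7 further tumours. It was 360 without line 18 day 10 A and 1460 without line 18 day 10 B. Ccl7 had log2 ratios of 1.81 at day 6, -0.25 at day 10 and -0.20 at day 16, and Atf3 had 1.38, -0.11 and 0.14. Endog, a mitochondrial nuclease, had -1.31, 0.87 and 0.36, and Nudt22 -1.80, 1.04 and 0.53. By edgeR the adjusted p was 0.0142 for Ccl7, Atf3 and Endog and 0.0218 for Nudt22. None of these passed without line 15 day 6 A, line 15 day 10 B or line 18 day 6 A, with adjusted p of 0.0702 to 0.149. Without line 15 day 16 B, Ccl7, Nudt22 and Atf3 missed the threshold too (0.0598, 0.0522 and 0.0522), and without line 15 day 6 B Ccl7 and Nudt22 did (0.0947 each). In immune cells Endog was at 9.08 and 11.9 CPM at day 6 in line 15 and at 28.1 and 27.0 CPM in line 18, and at day 10 the lines stood the other way round.

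Of 5 osteoclast markers 4 were among the line-by-day calls, against 1.63% of all genes, and Acp5 and Ctsk, the acid phosphatase and the cathepsin of bone-resorbing cells, had edgeR adjusted p of 0.0313 and 0.0311. As for all genes, none of these calls was made without line 15 day 6 A, line 15 day 10 B or line 18 day 6 A. The summed level of the list was 69.9 and 51.2 CPM in immune cells of line 15 at day 6 and 4454 and 4934 CPM at day 10, while line 18 held 4720.4 and 1844 CPM at day 6 and 354 and 3084 CPM at day 10. At day 16 line 15 held 2179 and 3712 CPM and line 18 703 and 1241.5 CPM. No marker of the list was at 0. The part of cells with these markers in the line-by-day differences of Endog and Nudt22 was not tested.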

How the data were processed

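Single-cell RNA and hashtag libraries (10x 5′ v2) of dissociated, hashed and live-sorted tumours were compared. Each deposited matrix gives, for every cell barcode, whole UMI counts of genes and hashtags, which the authors made with Cell Ranger 6.0.0 on mm10 per the submitters' processing notes, and a sheet that ties hashtags to line, day and letter. The count matrices hold 32285 gene rows and 10 hashtag rows. Barcodes were kept with at least 300 genes, at most 15% mitochondrial UMIs, a top hashtag of at least 20 counts and at least 3 times the second, which assigned 70.8% and 67.9% of passing cells, while 19.3% and 15.4% held a pair of hashtags and were left out as doublets. No further doublet caller was run.

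Counts were summed per hashtag within immune cells (2 or more UMIs of Ptprc and Tyrobp), other cells, C1q-gated cells (10 or more C1q UMIs) and Cd3-gated cells (2 or more Cd3 UMIs), with at least 20 cells a sum. The sums were fitted with edgeR 4.0.16 (R 4.3.3) by the quasi-likelihood test, with its default filter on low counts, TMM scaling, day as a factor and line as the contrast. P-values were adjusted by the Benjamini-Hochberg method over all genes tested. Line-by-day terms were tested in a separate fit, and shares of cells by exact permutation within days. DESeq2 1.42.0, RLE scaling, no filter, stricter cells, hashtags and splits, leaving out each tumour or day, a replicate block and the mixed libraries were the alternatives. Between tumours of the same line and day the chi-square per degree of freedom of gene counts was 3.28 to 12.6, so their counts differed beyond counting error. It cannot show that letters A and B are separate animals, because different cells of 1 tumour can also differ by more than counting error.

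Genes named were the 12 largest calls in each direction in other cells, 8 in immune cells and 4 in each gate, all with no overlap of the lines' tumours and a mean logCPM of at least 4, the 6 line-by-day genes of smallest p at that level, and members of gene and marker lists. Gene models, mitochondrial genes and receptor segments were not named, and some genes that the rule or the lists would name are not reported here. The members and lists were chosen with earlier results of these data known. Deviations of same-letter tumours of the lines correlated at 0.126, 0.126 and 0.101 in immune cells on days 6, 10 and 16. In other cells the values were 0.31, -0.13 and 0.23. The main fits held no letter term in any set of cells, and the letter entered only as the replicate block of an alternative fit. On simulated counts 100 well-counted genes were changed by a log2 fold change of 1 in each set of cells. The fit recovered 97% of them in other cells (12890 genes fitted), 93% in immune cells (11245) and 88% in C1q-gated cells (9244). False calls were 5.74%, 5.39% and 6% of the calls. The simulation gave all genes the same spread and held no day effect, so it does not give the recovery among the real genes. Gene positions are those of GENCODE M21, which matched 99.6% of the gene identifiers. Sequences are from RefSeq, GRCm38.p6. Figures were drawn with matplotlib 3.10.9.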

Additional observations from a re-analysis of the deposited data

Results flagged for a closer look

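Of 86 groups of 6 tumours examined for 1 value far from the others, 5 held such a value, and chance gives about 1 in 20. Cisd3 in other cells reached 116 CPM in its highest line 18 tumour, against 82.3 CPM in the next. Fads1 in other cells fell to 38.8 CPM in its lowest line 18 tumour, with the next at 49.99 CPM. Tslrn1 reached 13.6 CPM in the highest line 18 tumour, with the next at 9.13 CPM. Among immune cells, Gstt1 was at 3.26 CPM in 1 line 18 tumour and at 13.998 CPM or more in the others, and Oasl1 was at 82.2 CPM in 1 line 15 tumour and at most 43.0 CPM in the others.

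The line difference in immune cells varied with day for genes named by the smallest p. The adjusted p by edgeR was 0.0142 for Endog, Atf3, Ccl7 and Prdx4 and 0.0218 for Nudt22. Prdx4 had log2 ratios of -2.71, -1.24 and -1.23 on days 6, 10 and 16, lower in line 15 on each day. Each of these genes missed the threshold without line 15 day 6 A, without line 15 day 10 B or without line 18 day 6 A, at 0.0702 to 0.149.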

How the results depend on the processing

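The mixed libraries, with 3 tumours a line unevenly spread over captures, moved the most values. Calls in other cells numbered 2518 without day 10, 2029 without day 16, 77 in the mixed libraries alone and 37 with a library term, and 3594 to 4658 when 1 tumour was left out. In immune cells they numbered 2108 with no filter, 67 without day 16, 766 with the replicate block, 0 in the mixed libraries and 0 with a library term there, and 759 to 1646 with 1 tumour left out. With the replicate block, other cells gave 4769 calls and C1q-gated cells 422, within 1.5 times the values without it. Under the block Oasl1, Gzmd and Zfp36 in immune cells were no longer called, at adjusted p of 0.0693, 0.0518 and 0.0617 by edgeR. Nor was Tyrobp (0.0590 by edgeR), but its UMIs help to define the immune cells. Its level there thus cannot show a line difference in expression. No other gene reported changed its call. C1q-gated cells gave 988 calls with no filter, 18 without day 16, 4 and 0 in the mixed libraries, and 234 to 945 with 1 tumour left out. Cd3-gated cells gave 3 with DESeq2, 35 without day 10, 0 with the strict hashtag call, 21 in the mixed libraries, 138 with Cd3 cells of either compartment, and 35 to 56 with 1 tumour left out. For Cd3-gated cells the fits without line 15 day 16 A, without line 18 day 16 A or B, without day 16, with the block and with a library term were not run, because too few tumours were left. Line-by-day calls with no filter numbered 493 in other and 1725 in immune cells, and with 1 tumour left out 0 to 0 and 0 to 1460. The difference in immune share was 12.1 points in the mixed libraries and 9.39 to 13.7 points with 1 tumour left out. The mixed libraries held too few arrangements for the exact permutation test (p = 0.75) to reach the threshold.

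The sign turned as follows, whatever the size of the value, and the cause was not tested. The fit with a library term rests on a single pair of tumours. The smallest values, such as those of Cd44, Csf1, Oasl1 and Oas1g, show no clear direction. In other cells of the mixed libraries Mif was at -0.052, Ptprc at 0.59 and Tyrobp at 0.42. With a library term Mif was at -0.088, Mgp 0.14, Fos -0.48, Jun -0.17, Junb -0.36, Egr1 -0.27, Dusp1 -0.13, Zfp36 -0.058, Csf1 -0.0098, Irf7 -0.15, Bst2 -0.026 and Cd44 0.0021. Without cells holding fibroblast-list or Cd3 UMIs Dcn was at -2.40, Lum -1.73, Col1a1 -1.94, Bgn -0.19 and Col12a1 -0.36, where Dcn and Lum belong to the list that removed the cells. In immune cells of the mixed libraries Lgals7 was at 0.059, Col3a1 0.49, Oas1g -0.0076, Gzmd -1.70, Gzmf -1.01 and Spp1 0.17. With a library term Col3a1 was at 0.20, Uchl1 0.35, Ankrd1 -0.23, Kcnk3 -0.43, Dusp2 -0.17, Oasl1 -0.0011, Tex13b 0.31, Gzmd -2.63, Gzmf -2.89, Top2a 0.079, Zfp36 -0.30 and Dusp1 -0.33. Il1rl1 in Cd3-gated cells of the mixed libraries was at -0.69, and with a library term Ankrd1 and Kcnk3 in C1q-gated cells were at -0.54 and -0.43.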

Other observations

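Of 15 genes of TGF-beta signalling and contractile cells tested in other cells, 6 were called higher in line 15 and 1 in line 18, where 16.8% and 17.6% of all genes tested were called. Their median on the log2 scale was 0.18 from the own and 0.40 from the mixed libraries. Smad7, an inhibitor of TGF-beta receptors that the pathway itself induces, was at 41.9 to 53.4 CPM (median 46.2) in line 15 and 20.1 to 28.9 CPM (median 26.5) in line 18 (log2 fold change 0.95, adjusted p 1.02e-05 by edgeR, and 0.52 in the mixed libraries). Acta2, smooth muscle actin, was at 25.5 to 87.1 CPM (median 41.8) and 10.1 to 37.7 CPM (median 17.3) (1.41, adjusted p 0.00510, and 1.19 in the mixed libraries). Without the cells that held fibroblast-list or Cd3 UMIs, 3 of the 15 were called higher in line 15 and 2 in line 18, with a median of 0.084. Of all 12516 genes tested without those cells, 2034 were called higher in line 15 and 2127 in line 18. Acta2 in other cells was then at 1.30.

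The summed level of 5 neutrophil markers in immune cells ran from 71.2 to 733 CPM in line 15 and from 34.3 to 99.2 CPM in line 18, ranges that overlapped, and was not tested. Because Prdx4 and Tex13b lie on chromosome X, the level of Xist, the RNA that silences 1 X chromosome in female cells, was looked up after these values were seen. It was at 16.6 to 38.5 CPM (median 28.2) in line 15 and 14.3 to 36.4 CPM (median 27.0) in line 18 in other cells, and at 159 to 208 CPM (median 176) and 151 to 261 CPM (median 194) in immune cells, with overlapping ranges in both.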
